A study of Mus musculus with 2 samples.

Results

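The sarcomere is the contractile unit of striated muscle, and its protein genes were examined here in interscapular brown fat, a heat-producing fat depot. Genes were taken by name: the myosin heavy chains (Myh), myosin light chains (Myl), myosin-binding proteins C (Mybpc), myomesins (Myom), myozenins (Myoz), troponins (Tnnc, Tnni, Tnnt), tropomyosins (Tpm) and tropomodulins (Tmod), a set of single genes such as Actc1, Actn2, Actn3 and Tcap, and a transcript described as myosin heavy chain IIX. The rule found 54 probes for 39 genes and transcripts, out of 41174 probes for 35943 genes and transcripts on the arrays. They fell into 11 fast fibre members, 13 slow and cardiac members, 6 members shared by striated fibres and 8 non-muscle or smooth muscle members. The last 1, Tpmt, encodes a methyltransferase and no sarcomere protein, and it was caught by its first letters only.

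Mice lacking Rora, a nuclear receptor gene, among the genes lost in a double knockout (DKO), were set against wild-type mice (WT). Both groups were male C57BL/6 animals of 2 to 3 months, 4 per genotype per the labels, with brown fat taken near circadian time 20. The sources used here do not say how the alleles were made or whether the RNA of the 4 mice was pooled. Each of 2 whole-genome arrays carried both genotypes, with DKO in the red dye Cy5 and WT in the green dye Cy3 on one (the Cy5-DKO array) and the dyes exchanged on the other (the Cy3-DKO array).

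A ratio below is the log2 of DKO over WT, with its SD over both arrays (n = 2) after the ± sign. A level is a normalised channel intensity on a linear scale, comparable between genotypes for 1 probe and not between probes. The 2 arrays were counted as 1 RNA preparation per genotype in both dye orientations, so there was 1 replicate per genotype and no test was possible. The SD covers dye and measurement error, and the spread between mice is not known. The size rule asked for a mean difference of 2-fold or more and for 1.5-fold or more in that direction on each array. It also asked for signal well above background, on both arrays, in the genotype with more of it. Measured genes were those with such signal in at least 1 genotype.

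In a sarcomere, bipolar myosin thick filaments pull on actin thin filaments, and calcium binding to the troponin complex releases the block that tropomyosin holds over the actin sites. Fast and slow fibres build the same machine from different isoforms: in mouse limb muscle the heavy chains IIA, IIX and IIB mark fast fibres, and the beta heavy chain marks slow fibres. Brown adipocytes and skeletal muscle arise from a shared embryonic precursor, and the interscapular depot lies against skeletal muscle.

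Signal was well above background in 77.6% to 85.4% of the probe spots, depending on array and channel, and no member probe was saturated or marked as an outlier. As a check of the labels, Rora read −0.38 ± 0.04 and its second probe −0.47 ± 0.10, lower in DKO on each array and still well above background there. The scanner software's own ratios, which carry no added signal offset, were −0.96 ± 0.07 and −1.52 ± 0.14 for these probes. The sources used here do not say which part of Rora was deleted, and probes outside that part would check nothing.

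Most fast fibre members had higher levels in DKO, and 3 of them, Myh1, Actn3 and Myoz3, had ratios between 0.00 and 0.18. Of 36 measured members, 2 passed the 2-fold size rule as higher in DKO, the myosin heavy chain IIX transcript and Myom2, and 0 passed it as lower. Over all 28679 measured genes and transcripts, 0.101% passed as higher and 0.0244% as lower. At a mean of at least 1.5-fold with both arrays in the same direction, 9 of 36 members were higher (25.0%) and 0 were lower, against 0.359% and 0.275% of all genes. Among the 14870 genes within the intensity range of those 9 members, 0.646% were higher by this rule. Of these 9, 8 were fast fibre members, out of 11 measured, and the other was Actn2. The median ratio was 0.65 over the fast members, 0.02 over 11 measured slow and cardiac members, 0.15 over 5 shared members and −0.03 over 8 non-muscle and smooth muscle members, beside 0.00 over all measured genes. Both arrays read above 0 for 9 of 11 fast members, 3 of 11 slow and cardiac members, 2 of 5 shared members and 2 of 8 non-muscle members, against 19.2% of all genes. Below 0 on both arrays were 0 fast, 2 slow and cardiac, 0 shared and 2 non-muscle members, against 17.9% of all genes. Both DKO levels lay above both WT levels in 8 of 11 fast members, and in 12 of all 36, against 7.87% of all genes. They lay below both WT levels in 3 members, Myh7, Myl6 and Myh9, against 7.53% of all genes. The members were chosen with earlier results of these data known, so these counts describe them and are no test.

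**Figure D1:**
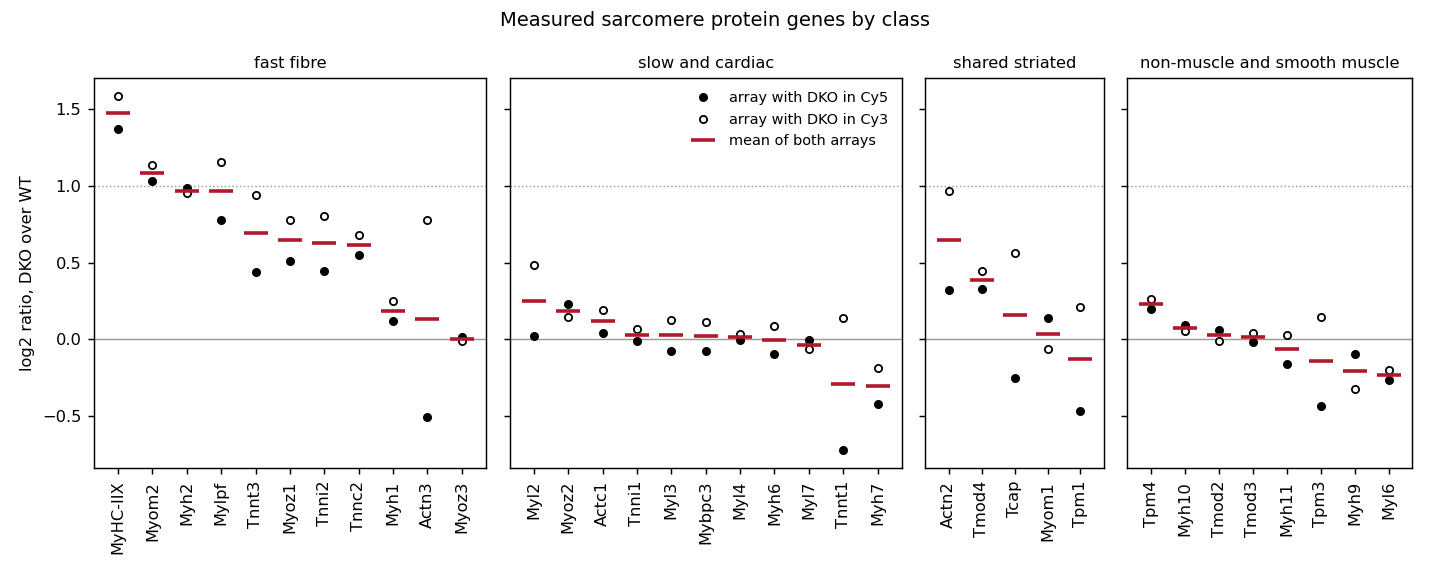
Log2 ratio of DKO over WT (y axis) for each measured member, in 4 panels by class, with filled points for the Cy5-DKO array, open points for the Cy3-DKO array and bars for their mean; the dotted line marks 2-fold. The 8 fast members from the heavy chain IIX transcript to Tnnc2 lie between 0.61 and 1.48, while the slow and cardiac members lie between −0.31 and 0.25.

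The fast heavy chains Myh2 (IIA), Myh1 (IIX) and Myh4 (IIB) are encoded by neighbouring genes, and their start regions are shown because probes for these chains had unlike ratios. RefSeq promoter windows of GRCm38.p6 place them in this order on the plus strand of chromosome 11, Myh2 at chr11:67170777-67171076, Myh1 at chr11:67199852-67200151 and Myh4 at chr11:67237562-67237861. The Myh1 window begins 29.1 kb after that of Myh2, and the Myh4 window 66.8 kb after it. Each window holds 300 bases, 250 before the annotated start and 50 after it. Capitals mark the longest run of bases shared by all 3 windows and the TATA box letters TATAAAA.
Myh2: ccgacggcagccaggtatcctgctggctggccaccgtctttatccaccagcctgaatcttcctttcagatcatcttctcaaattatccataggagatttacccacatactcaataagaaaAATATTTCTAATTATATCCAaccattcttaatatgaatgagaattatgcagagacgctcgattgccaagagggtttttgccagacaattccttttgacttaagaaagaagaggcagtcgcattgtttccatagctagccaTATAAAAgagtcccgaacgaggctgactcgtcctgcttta
Myh1: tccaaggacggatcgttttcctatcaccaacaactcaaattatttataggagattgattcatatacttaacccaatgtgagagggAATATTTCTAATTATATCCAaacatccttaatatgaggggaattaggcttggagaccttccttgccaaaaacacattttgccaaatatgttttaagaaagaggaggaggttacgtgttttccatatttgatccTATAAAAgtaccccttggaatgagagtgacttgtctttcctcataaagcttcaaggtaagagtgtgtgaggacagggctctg
Myh4: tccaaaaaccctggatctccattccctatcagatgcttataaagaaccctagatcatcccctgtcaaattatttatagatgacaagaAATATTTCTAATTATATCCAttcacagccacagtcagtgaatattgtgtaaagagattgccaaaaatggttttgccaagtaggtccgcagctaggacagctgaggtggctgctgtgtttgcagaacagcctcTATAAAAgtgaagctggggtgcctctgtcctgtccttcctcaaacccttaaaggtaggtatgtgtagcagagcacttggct

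The shared run is 20 bases long, and among all 32851 promoter windows of the table only these 3 held it on either strand. The run was taken from these 3 windows, so its absence from the others is no test. Relative to the annotated start, the run began at −130 in Myh2, −165 in Myh1 and −163 in Myh4. A TATAAAA match was present in all 3 windows and in 5.48% of all windows. The match began at −32 in Myh1 and −31 in Myh4. In Myh2 it began at 10, after the annotated start. The E-box letters CANNTG, which bind the MyoD family in muscle, matched 3 times in the Myh4 window and 0 times in the other two, against a match in 72.3% of all windows. MEF2 was searched only as CTA and TAG with any 4 bases between them (3.69% of all windows). These letters and the nuclear receptor half-site AGGTCA (16.3%) had 0 matches in the 3 windows. Other forms of the MEF2 motif were not searched, so whether these windows hold a MEF2 site was not tested. Both strands were searched and no 2 of the matched motifs in these windows overlapped. Of 38 RefSeq genes that the members name, 29 had a promoter entry. Some had more than 1 window, and a gene was counted where any of its windows matched. The shares of all windows count single windows, so they are not in the same unit. An E-box match was present in 2 of 4 fast genes with an entry, 12 of 13 slow and cardiac genes, 4 of 5 shared genes and 6 of 6 non-muscle genes. A match to the searched MEF2 letters was present in 0, 2, 0 and 1 of these genes, and an AGGTCA match in 0, 1, 1 and 2. These matches describe letters in these windows.

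The heavy chain is the myosin motor, and its isoform sets how fast a fibre shortens. The IIX transcript had levels of 2137 and 2503 in DKO on the Cy5-DKO and Cy3-DKO arrays, against 826 and 834 in WT. Both DKO levels were above both WT levels. The ratio was 1.48 ± 0.15, or 2.79-fold, the highest of the members. RefSeq lists this chain's name as a synonym of Myh1, whereas the probe that the array itself names Myh1 read 0.18 ± 0.09. That Myh1 probe was dimmer, with an average log2 intensity of 7.56 against 10.44 for the IIX probe. Its levels were 234 and 169 in DKO, against 216 and 142 in WT, so the genotypes overlapped. By the software's ratios it read 0.30 ± 0.25. Myh2 had levels of 832 and 943 in DKO, against 420 and 488 in WT, for a ratio of 0.97 ± 0.02, just short of the 2-fold rule. Its second probe read 1.02 ± 0.34 and passed the rule. Both Myh2 probes had DKO levels above WT levels with no overlap.

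Other spots lay outside the name rule but carried a heavy chain name in their description, and they were picked after the members had been seen. A spot described as heavy chain 2A read 0.92 ± 0.18. Both spots described as heavy chain IIB, the chain of the fastest mouse fibres, read 0.18 ± 0.26 and 0.12 ± 0.36, and each was near 0 or below it on 1 array. For the first IIB spot the levels were 5238 and 4674 in DKO, against 4065 and 4675 in WT, so the genotypes overlapped. The IIX ratio exceeded the IIB ratio by 1.30 ± 0.41 and 1.36 ± 0.21 for the 2 IIB spots, above 0 on each array. For Myh2 over IIB the difference was 0.79 ± 0.23 and 0.85 ± 0.39. A spot described as perinatal heavy chain read 0.42 ± 0.13, one described as embryonic heavy chain read −0.07 ± 0.16, and one described as similar to Myh2 read −0.04 ± 0.05. A spot described as a type 3 heavy chain homolog, which RefSeq names Myh1, read 0.11 ± 0.05, and 0.18 ± 0.21 by the software's ratios. The heavy chain genes are near copies of each other, probe sequences were not used here, and hybridisation of one chain's RNA to another's probe could not be assessed.

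Myh7, the beta heavy chain of slow fibres and heart, was on the other side of 0. Its levels were 653 and 770 in DKO, against 876 and 880 in WT, with both DKO levels under both WT levels. The ratio was −0.31 ± 0.16, and it did not pass the size rule. A spot described as slow heavy chain beta read −0.27 ± 0.20. The IIX ratio exceeded the Myh7 ratio by 1.79 ± 0.01 and the Myh2 ratio exceeded it by 1.28 ± 0.19. Myh6, the alpha heavy chain of the heart, read −0.01 ± 0.13, with arrays on opposite sides of 0.

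**Figure D2:**
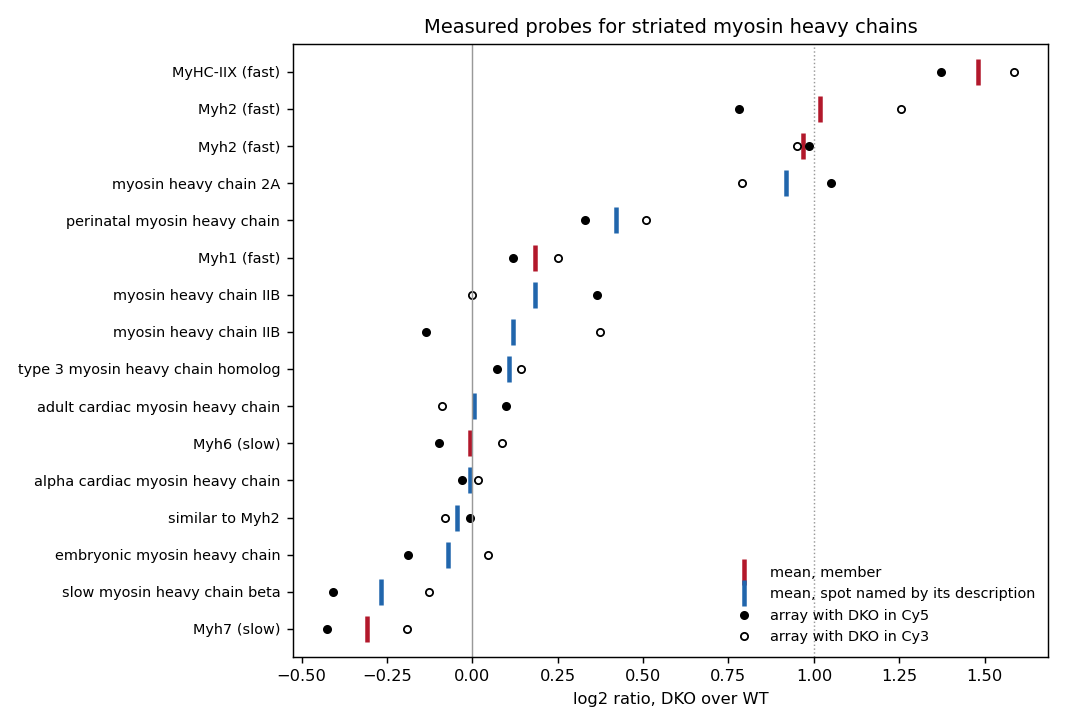
Log2 ratio of DKO over WT (x axis) for each measured probe of a striated myosin heavy chain, with points for each array. Red bars mark the mean of member probes, with the IIX transcript among them. Blue bars mark the mean of spots outside the name rule, known by their description. The IIX transcript, both probes named Myh2 and the spot described as heavy chain 2A lie between 0.92 and 1.48, while the probe named Myh1 lies at 0.18, the spot described as similar to Myh2 at −0.04, the 2 IIB spots at 0.12 and 0.18, and both beta chain probes below 0 on each array.

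Light chains wrap the neck of the myosin head and tune its stroke. Mylpf, the regulatory light chain of fast fibres, had levels of 769 and 953 in DKO, against 449 and 427 in WT. The genotypes did not overlap and the ratio was 0.97 ± 0.27. It was 0.77 on the Cy5-DKO array and 1.16 on the Cy3-DKO array. With the software's ratios, both Mylpf (1.05 ± 0.30) and Myh2 (1.05 ± 0.04) passed the 2-fold rule. A spot for the fast alkali light chain, which RefSeq names Myl1, read 0.20 ± 0.04, positive on each array. The slow and cardiac light chains were closer to 0 than Mylpf. Myl2, the slow and ventricular regulatory chain, read 0.25 ± 0.33, Myl3, the slow and ventricular essential chain, read 0.03 ± 0.14, and Myl4, the atrial essential chain, read 0.02 ± 0.03. Myl7, the atrial regulatory chain, was well above background on both arrays only in WT and read −0.04 ± 0.04.

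The troponin complex is the calcium switch of the thin filament, and its 3 fast subunits had like ratios. Tnnc2, the fast calcium-binding subunit, had levels of 8210 and 8402 in DKO, against 5620 and 5237 in WT, for a ratio of 0.61 ± 0.10. Tnni2, the fast inhibitory subunit, had levels of 4837 and 5354 in DKO, against 3551 and 3065 in WT, for a ratio of 0.63 ± 0.25. Tnnt3, the fast tropomyosin-binding subunit, had levels of 1049 and 1335 in DKO, against 774 and 694 in WT, for a ratio of 0.69 ± 0.36, with 0.44 and 0.94 on the 2 arrays. In all 3 genes both DKO levels were above both WT levels, and none reached 2-fold. A second troponin T spot, known by its description, read 0.71 ± 0.71.

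The slow subunits read near 0 or had arrays that disagreed. Tnni1, the slow inhibitory subunit, read 0.03 ± 0.06, and Tnnt1, the slow tropomyosin-binding subunit, read −0.29 ± 0.61 with arrays at −0.73 and 0.14. A spot for Tnnc1, the slow and cardiac calcium-binding subunit, read 0.01 ± 0.16. The probes named for the cardiac subunits Tnni3 and Tnnt2 were not well above background in either genotype, and a spot described as cardiac troponin I was measured and read −0.02 ± 0.01.

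**Figure D3:**
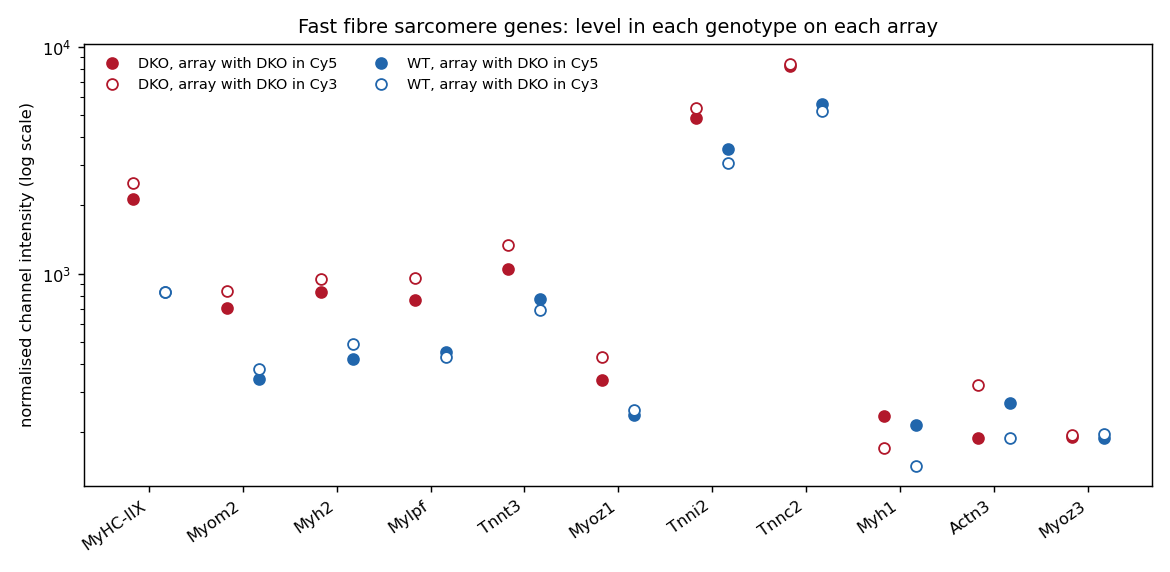
Normalised channel intensity (y axis, log scale) of the 11 fast members, each by its brightest measured probe, with DKO in red left of WT in blue, filled points for the Cy5-DKO array and open points for the Cy3-DKO array. In the 8 genes from the IIX transcript to Tnnc2 both DKO points lie above both WT points, and in Myh1, Actn3 and Myoz3 they overlap; levels of different genes are not comparable.

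The M-band links thick filaments at their middle, and the Z-disc anchors thin filaments at their ends. Myom2, the M-band myomesin of fast fibres, had levels of 703 and 836 in DKO, against 344 and 381 in WT. The groups did not overlap and the ratio was 1.08 ± 0.07, past the size rule. A second, dim Myom2 probe was not well above background. Myom1, the myomesin of all striated fibres, read 0.04 ± 0.14 by its brightest probe, and its other 2 probes read 0.14 ± 0.14 and −0.03 ± 0.12.

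Among Z-disc members, Myoz1, the calcineurin-binding myozenin of fast fibres, read 0.65 ± 0.19, and its second probe read 0.54 ± 0.57. Its levels were 338 and 430 in DKO, against 237 and 250 in WT, with no overlap. Myoz3, another fast fibre myozenin, read 0.00 ± 0.02. Myoz2, the slow and cardiac form, read 0.19 ± 0.06, and its second probe read 0.01 ± 0.11. Actn2, the alpha-actinin of all striated fibres, read 0.64 ± 0.46, with 0.32 and 0.97 on the 2 arrays, and 1.17 ± 0.85 by the software's ratios. Actn3, the alpha-actinin of fast fibres, had opposite signs on the 2 arrays (−0.51 and 0.78) and a mean of 0.13 ± 0.91. Tcap, which caps titin at the Z-disc, likewise split, at −0.25 and 0.56, with a mean of 0.15 ± 0.58.

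Among thin filament proteins the ratios were uneven. Tmod4, the skeletal muscle protein that caps the slow-growing end of actin, read 0.39 ± 0.08, and 0.84 ± 0.31 by the software's ratios, while Tmod1 was not well above background. Tpm1, a tropomyosin of striated and other cells, read −0.13 ± 0.48 by its probe and 0.53 ± 0.34 by a spot known by its description, so its probes disagreed. Actc1, the cardiac alpha-actin, read 0.12 ± 0.11. A spot for Acta1, the skeletal alpha-actin, had levels of 2356 and 3035 in DKO, against 1571 and 1420 in WT, and read 0.84 ± 0.36. Of 3 spots for tropomyosin 2, all read above 0, between 0.33 and 0.55, and 1 did so on each array. Mybpc3, the cardiac form of the thick filament's myosin-binding protein C, read 0.02 ± 0.13.

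Titin spans the distance between the Z-disc and the M-band as a spring, and nebulin runs along the thin filament. Of 9 measured titin spots, 8 read above 0 on both arrays, and their ratios ran between −0.00 and 0.71 with a median of 0.24. All 4 measured nebulin spots read above 0 on both arrays, between 0.08 and 0.78. Of all measured genes, 19.2% read above 0 on both arrays, but that share takes 1 probe per gene. The titin spots are probes of 1 gene, as are the nebulin spots, so their counts are no counts of genes. The highest nebulin spot had levels of 356 and 372 in DKO, against 195 and 229 in WT. By the software's ratios, which carry no added signal offset, the median was 0.38 over the titin spots and 0.65 over the nebulin spots. With the offset, which shrinks ratios of dim probes, these medians were 0.24 and 0.35. Spots of 1 protein spread over a wide range, and the place of each probe in these long transcripts was not used here. In all, 48 described spots were examined, 44 were measured, 5 were higher at 1.5-fold and 0 passed the 2-fold rule. Over all measured genes, 0.359% were higher at 1.5-fold and 0.101% passed the 2-fold rule as higher. These shares count genes, whereas the described spots are probes, some of the same gene and some of members such as Tnnt3. The median of the described spots was 0.18 over 7 measured fast spots and 0.25 over 23 shared spots. It was −0.02 over 6 slow and cardiac spots and −0.01 over 8 non-muscle spots.

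Non-muscle and smooth muscle members, which serve cell shape, division and vessel tone, included no gene past the size rule. Myl6, the essential light chain of non-muscle and smooth muscle myosin, had levels of 9449 and 9814 in DKO, against 11349 and 11296 in WT. DKO was below WT with no overlap, as in 7.53% of all measured genes, and the ratio was −0.23 ± 0.04. With median centring instead of loess the Myl6 ratio was −0.08. A second spot described as non-muscle light chain 3 read −0.21 ± 0.00. Myh9, the non-muscle heavy chain IIA, read −0.21 ± 0.16, with both arrays below 0. Tpm4, a non-muscle tropomyosin, read 0.23 ± 0.04, and Tpm3, made in slow fibres and in other cells, read −0.14 ± 0.41. The second Tpm3 probe read 0.11 ± 0.17. Myh11, the smooth muscle heavy chain, read −0.07 ± 0.13, and Tmod2, a tropomodulin of neurons, read 0.03 ± 0.05. Myh10 and Tmod3 read between 0.01 and 0.07, and Tpmt read −0.10 ± 0.20.

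Among striated members, ratios on the 2 arrays went together. Across the 27 measured striated members, genes being no independent replicates, Pearson's r between the arrays' ratios was 0.75 and Spearman's rho 0.66. Across all measured genes these were −0.01 and −0.29. These are descriptions of probes that share both arrays. The striated ratios also differed in size between arrays: 22 of 27 were higher on the Cy3-DKO array, by a median of 0.19, whereas over all genes 13805 of 28679 were, with a median difference of −0.01. The fast median was 0.51 on the Cy5-DKO array and 0.80 on the Cy3-DKO array. The fast median exceeded the slow and cardiac median by 0.52 and 0.69 on them. Array and dye orientation cannot be told apart in this design.

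**Figure D4:**
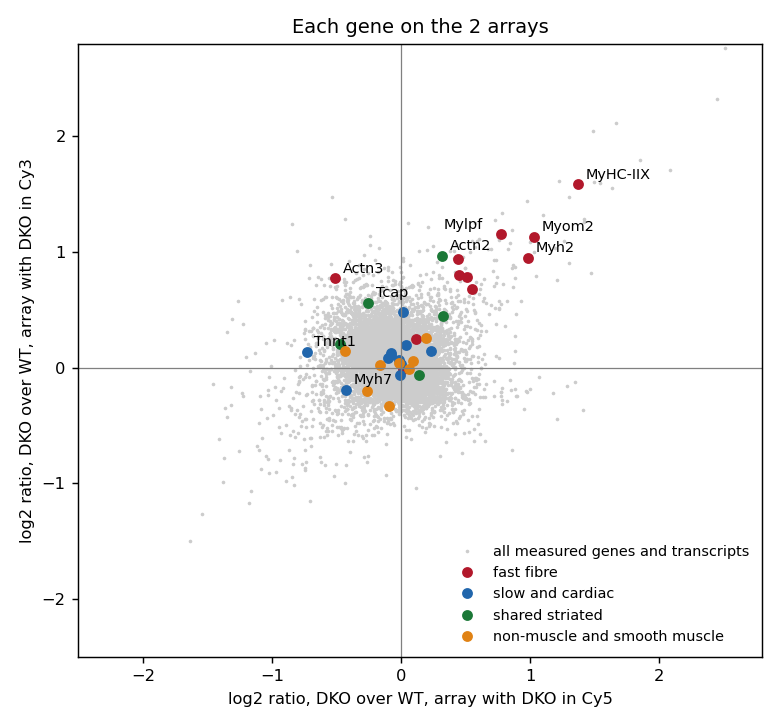
Log2 ratio of DKO over WT on the Cy5-DKO array (x axis) and the Cy3-DKO array (y axis) for all 28679 measured genes and transcripts in grey, with members coloured by class. Most fast members lie in the upper right, where both arrays read higher in DKO, and Actn3, Tcap and Tnnt1 lie in the upper left, where the arrays disagree.

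Other skeletal muscle genes also had ratios above 0. Of a list of 31 skeletal muscle genes that are no members, 26 were measured. Positive on each array were 20, against 19.2% of all measured genes, and negative on each were 0, against 17.9%. The median ratio of the list was 0.32. It was 0.13 on the Cy5-DKO array and 0.43 on the Cy3-DKO array. Those past the size rule were the mitochondrial creatine kinase Ckmt2 at 1.42 ± 0.28, the muscle enolase Eno3 at 1.21 ± 0.33, the ankyrin repeat gene Ankrd23 at 1.04 ± 0.06 and myoglobin (Mb) at 1.004 ± 0.39. Over all measured genes, 0.101% passed the size rule as higher. At 1.5-fold with both arrays in the same direction, 9 of the 26 were higher, against 0.359% of all measured genes. Summed levels of the list were 36028 and 38286 in DKO, against 33185 and 28544 in WT. Such sums follow the brightest probes, here Cox7a1, a respiratory chain gene also abundant in brown fat, and without it they were 7259 and 9099 in DKO, against 5270 and 4969 in WT. Each of the 26 was well above background on both arrays in at least 1 genotype, and the other 5 were not found by name and were not analysed here. In bulk RNA, fewer or more muscle fibres in a sample and less or more RNA per fibre cannot be told apart, and the part of adjoining muscle in the sarcomere ratios was not tested.

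Within the muscle lists, ratios were uneven. Of 13 measured sarcomere-associated genes outside the name rule, 0 passed the size rule and the median was 0.09. At 1.5-fold, 1 of these 13 genes was higher, against 0.359% of all measured genes. Their brightest, the methyltransferase Smyd1 and the LIM protein Fhl1, read −0.01 ± 0.10 and 0.46 ± 0.18. Of 8 measured muscle transcription factors 0 passed, with a median of 0.03. The myogenic factor Myod1 read −0.05 ± 0.04. The smooth muscle list (8 measured) had a median of 0.05, with Tagln at 0.35 ± 0.75 and Acta2 at 0.11 ± 0.33, and the cardiac list (5 measured) had a median of 0.03, with Nkx2-5 at 0.03 ± 0.19 and Gata4 at −0.00 ± 0.08.

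Ratios of fat markers were uneven too. Among 8 brown adipocyte genes, the deiodinase Dio2 (1.89 ± 0.32) and the fatty acid elongase Elovl3 (1.02 ± 0.02) passed the size rule and the list median was 0.28. Of the rest, Ppargc1a read 0.54 ± 0.04, Cox8b 0.01 ± 0.30, Cpt1b −0.05 ± 0.37, Prdm16 −0.08 ± 0.29 and Cidea −0.14 ± 0.02. The uncoupling protein Ucp1, which makes the heat, had levels of 35235 and 37521 in DKO, against 21122 and 22598 in WT. The medians of the endothelial, macrophage and fibroblast lists were 0.03, 0.04 and −0.14, with no gene past the size rule.

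**Figure D5:**
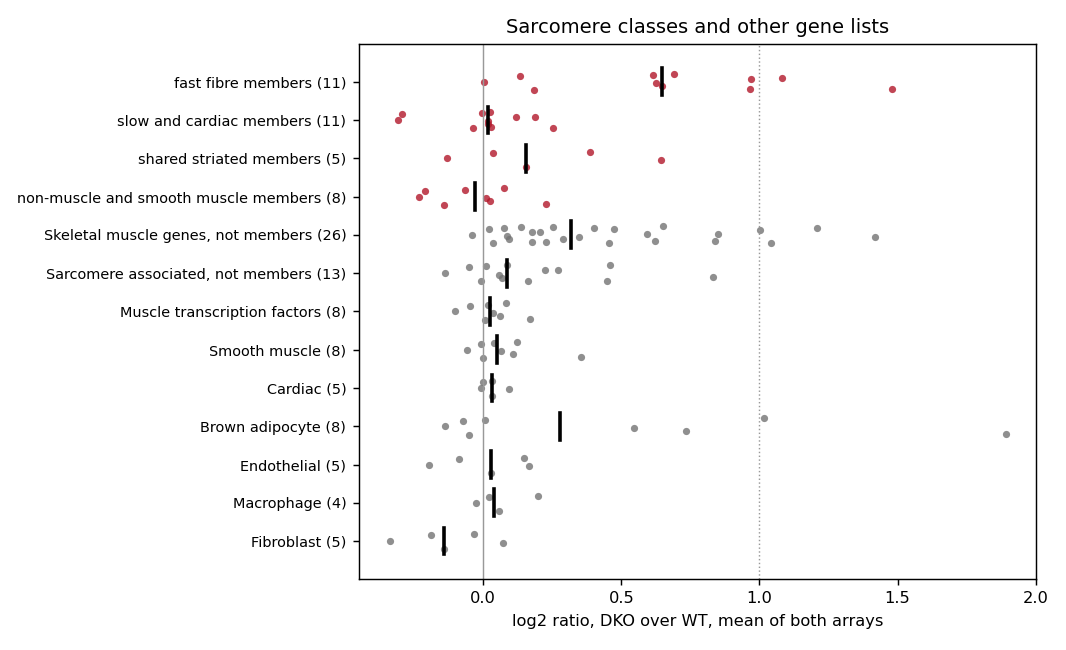
Log2 ratio of DKO over WT, mean of both arrays (x axis), for each measured gene of the 4 member classes (red) and 9 other lists (grey), with black bars for medians and the number measured in brackets. The fast members have the highest median (0.65), followed by skeletal muscle genes that are no members (0.32) and brown adipocyte genes (0.28).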

How the data were processed

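RNA of interscapular brown fat was measured on 2 two-colour Agilent arrays with exchanged dyes. The authors extracted images with Agilent Feature Extraction 7.5, per the labels. Per the file headers, deposited mean, median and background signals are intensity values on a linear scale, and deposited log10 ratios are red over green after the software's dye normalisation. Values in the deposited series table are log2 ratios, and its columns matched the software's red over green within 0.001 for 40962 of 41001 and 41101 of 41141 values.

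Mean signals were corrected with normexp (offset 50) and loess-normalised within arrays in limma 3.58.1 under R 4.3.3, then turned to DKO over WT and averaged. The offset shrinks ratios of dim probes. Levels were scaled between arrays by average intensity (Aquantile). Outlier spots were left out, and 40979 probes had a ratio. Probes were named through RefSeq (GRCm38.p6) by accession or symbol, and 20315 had no match and kept their file name. A gene was represented by its brightest measured probe. The size rule was tested on simulated ratios. Any member could be named: values are given for all measured striated members, for the 6 brightest non-muscle members, and for called or else the 2 brightest genes of the muscle lists; the other brown adipocyte genes and the described spots were named after their values were seen. Members, classes and lists were chosen with earlier results of these data known. Alternatives covered the offset, software ratios, median signals, centring, loess, the dim filter, saturation, fold thresholds, probe averaging, the value table and each array alone. With 2 arrays, their number limits the precision. The level of some genes that these rules name is not reported here. Scripts ran in Python 3.11.15.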

Additional observations from a re-analysis of the deposited data

How the results depend on the processing

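The number of members called higher in DKO was 2 with median signals, loess on detected probes, either dim filter, saturated spots left out and averaged probes. It was 4 with an offset of 16, with the software's ratios, with median centring and with the value table, where Myh2 and Mylpf joined the IIX transcript and Myom2. It was 9 at 1.5-fold and 0 at 3-fold. With each array alone it was 2 and 3. The number called lower was 0 under every alternative run. Over all genes, the 29 called higher became 53 with the software's ratios or the value table, 103 at 1.5-fold, 7 at 3-fold and 32 to 56 with 1 array. The 7 called lower became 13 with an offset of 16, 28 with the software's ratios or the value table, 79 at 1.5-fold, 0 at 3-fold and 9 to 38 with 1 array. The fast median lay between 0.63 and 0.77 over the two-array alternatives and between 0.51 and 0.80 with 1 array. Median centring gave 0.10 for the slow and cardiac median and 0.29 for the shared median, and no dim filter gave 0.095 for the shared median. Median centring also gave −0.18 for Myh7, −0.08 for Myl6 and −0.08 for Myh9, against −0.31, −0.23 and −0.21 in the main setting. With 1 array, where the measured set differs, the slow and cardiac median was −0.010 to 0.11, the shared median 0.050 to 0.44 and the non-muscle median −0.06 to 0.03. The median of skeletal muscle genes that are no members was 0.56 with the software's ratios or the value table, and 0.13 to 0.43 with 1 array. Of 419 values of single members under alternatives, 396 had the sign of the main value. The 5 of opposite sign with a main value of at least 0.1 in size came from 1 array alone, and were those of Actn3, Tcap, Tnnt1, Tpm1 and Tpm3. No paired analysis was possible because the ratio on each array already sets both genotypes side by side and there is 1 replicate per genotype, so no replicate numbers are left to pair.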
